A study of Mus musculus with 2 samples.

Results

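DNA replication genes code for the proteins that copy the genome in S phase. Here they are a list of 37 genes in 6 functional groups, chosen by name: origin licensing and helicase loading, helicase activation, polymerases, the sliding clamp and lagging-strand enzymes, nucleotide supply, and control of the G1/S transition. Every probe set whose single annotated gene was one of the 37 was taken, which gave 81 probe sets. All 37 genes had a signal above the floor, defined below, on both arrays, out of 11280 genes with a ratio in the whole series. They were measured in thymocytes of C57BL/6J mice on 2 Affymetrix arrays, 1 titled DKO and 1 titled TKO, each from cells left after bead depletion of lineage-marker-positive cells. By the design text the DKO cells are LckCre(-)Cdkn2a-/-Ring1A-/-Ring1Bfl/fl and the TKO cells LckCre(+)Cdkn2a-/-Ring1A-/-Ring1Bfl/fl. Both then lack the cell-cycle inhibitors of Cdkn2a and the Polycomb protein Ring1A, and Ring1B is removed in TKO cells by a Cre recombinase driven in T-lineage cells. The samples' genotype field gives Ring1A and Ring1B loss for DKO, with Cdkn2a loss added in TKO. No source used here gave ages, animal numbers or pooling, and a growth field mentions culture in standard medium.

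In each cell cycle, the origin recognition complex with Cdc6 and Cdt1 loads the ring of Mcm2 to Mcm7 onto DNA in G1 phase, and geminin, the product of Gmnn, blocks reloading afterwards. Cdc45 and the GINS complex then turn the ring into an active helicase, polymerases alpha, delta and epsilon copy the strands, and ribonucleotide reductase, thymidylate synthase and thymidine kinase supply deoxynucleotides. Many of these genes are transcribed by E2F factors, which the retinoblastoma protein holds inactive until cyclin-dependent kinases phosphorylate it. Cdkn2a encodes an inhibitor of those kinases. Early thymocytes that have passed the pre-T-cell receptor checkpoint are among the fastest dividing cells of the mouse.

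The promoters of several members carry E2F-type letters, the feature these genes are known to share. Examples from 5 of the functional groups are shown, the last of them, Rrm1, without such letters. RefSeq promoter windows (GRCm38.p6, from 250 bases before to 50 after the gene start) were found for 29 of the 37 members, in 34 windows. Each window was searched on both strands for 4 E2F-type motifs, TTTCGCGC, TTTGGCGC, TTTCCCGC and TTTGCCGC, and for the CCAAT box, CCAAT. The lines below give the 180 bases before the start, on the strand of the gene, with E2F-type and CCAAT matches on either strand in capitals. Mcm5 and Mcm6 each hold a pair of overlapping E2F-type matches on opposite strands, and Mcm6 has another nearer the start. In the printed bases Gins3, Pola1 and Rfc3 hold 1 each, and the searched window of Rfc3 holds another that begins at the gene start. No nucleotide supply gene had an E2F-type match in its window, nor did Ccne1 and E2f1, the G1/S control genes with a window. Rrm1 is shown for its 2 CCAAT boxes.
Mcm5, chr8:75109329-75109508, plus strand: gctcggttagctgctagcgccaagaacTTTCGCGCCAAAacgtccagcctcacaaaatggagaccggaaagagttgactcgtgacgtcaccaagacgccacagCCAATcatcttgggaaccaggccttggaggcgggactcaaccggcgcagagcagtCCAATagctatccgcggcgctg
Mcm6, chr1:128359706-128359885, minus strand: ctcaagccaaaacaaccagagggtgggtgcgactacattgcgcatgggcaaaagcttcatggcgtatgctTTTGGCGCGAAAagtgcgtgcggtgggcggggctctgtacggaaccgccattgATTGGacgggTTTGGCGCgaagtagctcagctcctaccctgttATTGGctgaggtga
Gins3, chr8:95633379-95633558, plus strand: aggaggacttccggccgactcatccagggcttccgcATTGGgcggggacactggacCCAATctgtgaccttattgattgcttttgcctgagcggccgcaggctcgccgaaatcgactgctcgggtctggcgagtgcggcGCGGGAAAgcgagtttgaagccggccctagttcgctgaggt
Pola1, chrX:93632156-93632335, minus strand: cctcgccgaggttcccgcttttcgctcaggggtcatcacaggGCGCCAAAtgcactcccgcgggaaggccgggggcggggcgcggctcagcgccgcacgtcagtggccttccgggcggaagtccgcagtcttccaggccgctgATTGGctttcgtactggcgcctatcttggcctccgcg
Rfc3, chr5:151651209-151651388, minus strand: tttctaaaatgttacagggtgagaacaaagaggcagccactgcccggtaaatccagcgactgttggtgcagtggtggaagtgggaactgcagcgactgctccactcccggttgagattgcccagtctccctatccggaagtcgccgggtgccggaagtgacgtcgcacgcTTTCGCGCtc
Rrm1, chr7:102441515-102441694, plus strand: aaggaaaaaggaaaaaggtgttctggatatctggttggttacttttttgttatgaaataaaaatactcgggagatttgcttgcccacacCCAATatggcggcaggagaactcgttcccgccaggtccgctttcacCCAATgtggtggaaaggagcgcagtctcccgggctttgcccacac

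An E2F-type match occurred in the windows of 12 of the 29 members (41.4%), against 4.98% of the 9165 genes with both a ratio on these arrays and a window, and 2.6% of all 27025 genes of the promoter table. The 12 were Orc1, Cdc6, Cdt1, Mcm3, Mcm5, Mcm6, Mcm7, Gins3, Pola1, Pold1, Rfc3 and Lig1. Of them 7 are helicase loading genes, which is also the largest group, with 12 members of which all but Gmnn and Mcm4 had a window. CCAAT occurred in 17 of the 29 (58.6%), against 42.7% of the genes on the arrays. The letters TTTGAA, found in promoters of genes expressed late in the cycle, were in 4 members (13.8%), against 14% of genes on the arrays. A match is a string of letters only, and the absence of one in these windows says nothing about E2F binding elsewhere. Members with an E2F-type match had a median log2 ratio (TKO-titled minus DKO-titled) of -0.21, and those without one -0.24.

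Each label had 1 array, so no spread between mice or cultures exists and no test was possible. A fixed rule of size was used: a gene was counted when its signals were at least 2-fold apart. Signals are deposited MAS5 intensities, the brightest probe set over both arrays (mean log2 signal) stands for each gene, and a signal below the array's median over all probe sets (68.8 and 71.8 on the DKO-titled and TKO-titled arrays) was raised to that floor. The trimmed mean signal was 497 on both arrays. The targeted genes do not settle the genotypes. Cdkn2a had 679 and 18.5 on the DKO-titled and TKO-titled arrays, while Ring1 had 133 and 147 and Rnf2, which encodes Ring1B, 4149 and 4384. Whether these probe sets lie inside the deleted parts was not given in the sources used here, so the arrays are called by their titles. Xist was at 124 on the DKO-titled and 16502 on the TKO-titled array, and the Y-linked Eif2s3y at 1711 and 55.3, Kdm5d at 652 and 30.4, and Uty at 345 and 14.7. Sex therefore differed together with the label, and their parts in what follows cannot be told apart.

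None of the 37 genes was 2-fold apart between the arrays, and most had a slightly lower signal on the TKO-titled array. The count at 2-fold was 0 of 37 in both directions, where 3.58% of all genes had a 2-fold or larger increase on the TKO-titled array and 0.532% a decrease of that size (4.11% in either direction). In the brightest quartile of genes, described next, 1.45% were 2-fold apart in either direction. The log2 ratios ran from -0.42 for Pole to 0.37 for Ccne2, with a median of -0.23, which is 1.17-fold lower, and an SD among the genes of 0.15. Of the 37 ratios, 34 were below 0 and 3 above it, while 53.5% of all 11280 genes were below 0, with a median of -0.03. Bright genes as a whole were shifted the same way. In the quartile of genes with the highest signal, which holds 25 of the members, the median of all 2820 genes was -0.08 and 64.9% were below 0, against a median of -0.25 and 23 of 25 for the members there. In the next quartile down the 8 members had a median of -0.19 and all genes -0.03, with 54.5% of those below 0 and 8 of 8 members. In the quartile below that the 4 members had a median of -0.23 and all genes -0.01 (3 of 4 members and 50.8% of genes below 0). After a lowess fit had removed the dependence of the ratio on signal, the members' median was -0.15 with 31 of 37 below 0, and that of all genes 0.01 with 48.8% below 0.

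**Figure D1:**
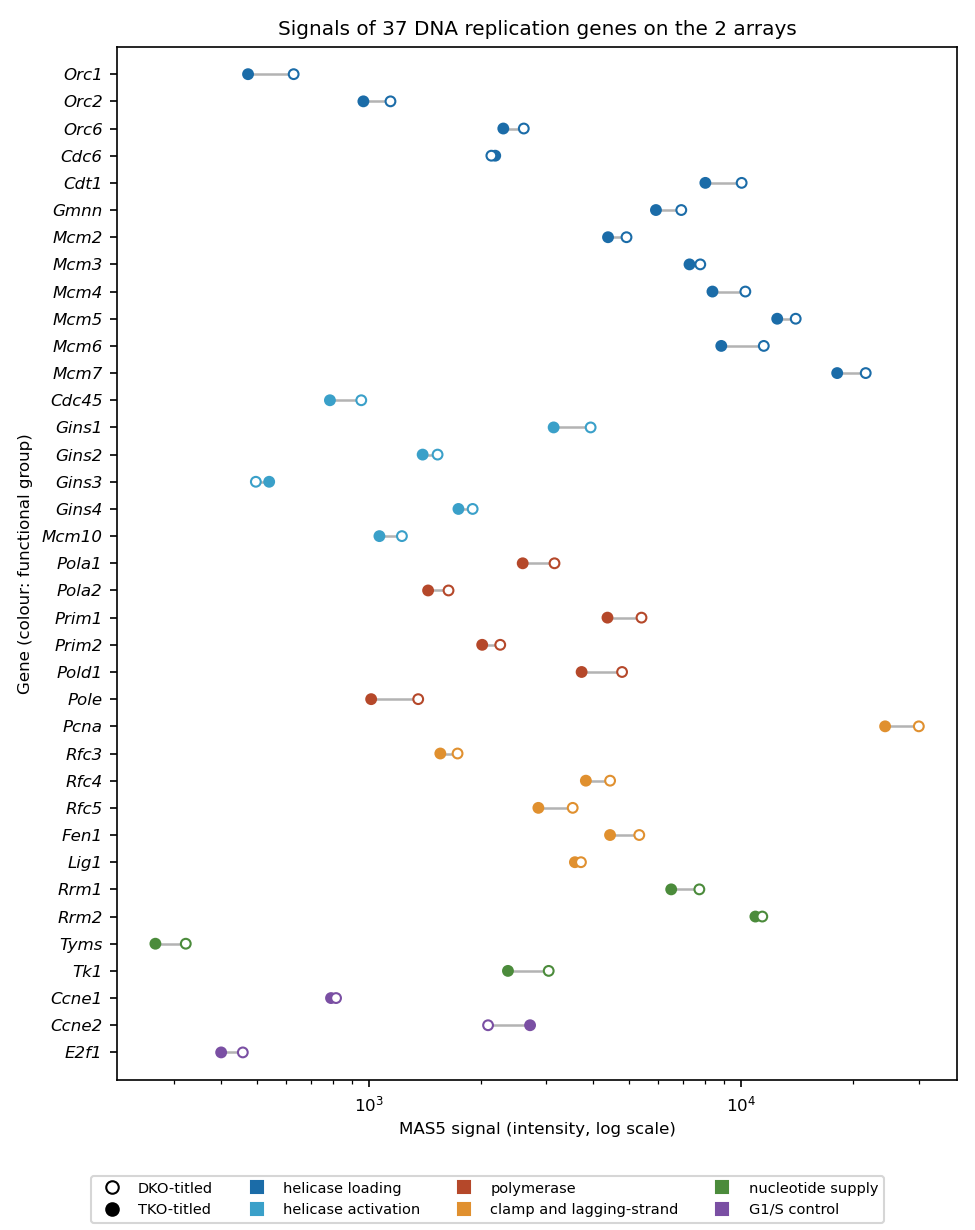
MAS5 signals of the 37 genes (horizontal axis, log scale, intensity) on the DKO-titled array (open points) and the TKO-titled array (filled points), 1 row per gene, coloured by functional group, 1 array per label. In 34 rows the filled point lies left of the open one, and in those of Cdc6, Gins3 and Ccne2 it lies right of it.

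**Figure D2:**
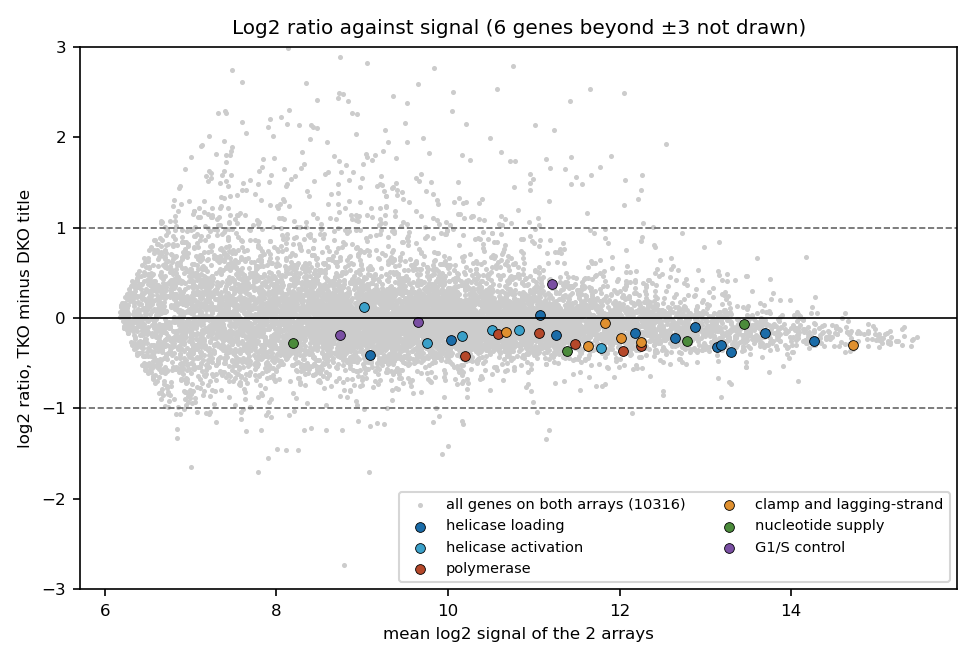
Log2 ratio (TKO-titled minus DKO-titled, vertical axis) against the mean log2 signal of both arrays (horizontal axis) for 10316 genes above the floor on both arrays (grey, of which 6 lie beyond the vertical axis) and the 37 replication genes (coloured by group), with dashed lines at 2-fold. The coloured points stay between -0.42 and 0.37, inside the dashed lines, and the grey cloud drifts below 0 at the highest signals.

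The origin recognition complex marks the sites where the helicase is loaded. Its 3 subunits among the 37 genes had lower signals on the TKO-titled array by their brightest probe sets. Of its subunits outside the 37, Orc3 was at -0.10, Orc4 at -0.11 and Orc5 at 0.18. The dimmer probe sets of Orc3 and Orc4 were above 0. Orc1, the ATPase subunit made in G1 phase, had 629 on the DKO-titled and 474 on the TKO-titled array (log2 ratio -0.41), the largest difference among the loading genes. Orc2, a core subunit, had 1144 and 968 (-0.24), and Orc6, the smallest subunit, 2610 and 2299 (-0.18). The factors that bring the helicase to the complex did not move alike. Cdt1, the helicase chaperone, had 10041 and 8023 (-0.32), and its inhibitor geminin (Gmnn) 6912 and 5910 (-0.23). Cdc6, the loading ATPase, was nearly equal at 2136 and 2187 (0.03).

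The subunits of the Mcm2 to Mcm7 helicase, which form a ring of 1 copy each, had ratios between -0.38 and -0.10, with a median of -0.21. Mcm6 had 11514 and 8852 on the DKO-titled and TKO-titled arrays (-0.38), Mcm4 10273 and 8382 (-0.29), and Mcm7 21628 and 18129 (-0.25). The other subunits were closer to equal, with Mcm5 at 14026 and 12511 (-0.16), Mcm2 at 4926 and 4394 (-0.16), and Mcm3 at 7774 and 7273 (-0.10). Their order depended on the probe set: without the probe set types that can cross-hybridise, Mcm5 was at -0.38, Mcm2 at -0.33 and Mcm3 at -0.32. Over the 12 helicase loading genes the median was -0.23, and 11 of 12 ratios were below 0.

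Helicase activation genes had a median of -0.17 over 6 genes, with 5 below 0. Their place beside the loading genes depended on the scaling: quantile normalization gave -0.19 for activation and -0.17 for loading, and lowess -0.14 for both. Gins1 had 3946 on the DKO-titled and 3139 on the TKO-titled array (-0.33), but a dimmer second probe set, 255 and 232, gave -0.14. By the brightest probe sets, its partners in the 4-subunit GINS complex were nearer to equal. Gins2 had 1531 and 1396 (-0.13), Gins4 1902 and 1742 (-0.13), and Gins3 498 and 540 (0.12). Cdc45, which joins GINS and the Mcm ring in the active helicase, had 955 and 787 (-0.28). Mcm10, a factor needed for the helicase to start unwinding, had 1228 and 1069 (-0.20).

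The polymerase group had a median of -0.29, with all 6 ratios below 0, the lowest of the groups except without the cross-hybridising probe set types, when those of helicase loading (-0.31) and nucleotide supply (-0.26) were lower than its -0.25. Pole, the catalytic subunit of the leading-strand polymerase epsilon, had 1358 and 1015 on the DKO-titled and TKO-titled arrays (-0.42, 1.34-fold lower), the lowest ratio of the 37. Pold1, the catalytic subunit of polymerase delta, had 4793 and 3732 (-0.36). In the polymerase alpha-primase complex, which lays down the RNA-DNA primers, the primase subunit Prim1 had 5405 and 4379 (-0.30) and the polymerase subunit Pola1 3156 and 2592 (-0.28). Their partners Pola2, at 1638 and 1444 (-0.18), and Prim2, at 2256 and 2018 (-0.16), were closer to equal. This order was not kept by second probe sets, which gave -0.21 for Pold1, -0.53 for Prim1 and -0.34 for Prim2.

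Among clamp and lagging-strand genes the median was -0.24, again with all 6 ratios below 0. Pcna, the sliding clamp that tethers the polymerases, had 30038 and 24386 (-0.30). The clamp loader subunits Rfc5, Rfc4 and Rfc3 had 3531 and 2856 (-0.31), 4450 and 3831 (-0.22), and 1733 and 1557 (-0.15). Fen1, the flap endonuclease that trims Okazaki fragments, had 5331 and 4449 (-0.26). Lig1, the ligase that seals them, was nearly equal at 3716 and 3580 (-0.05). After quantile normalization the ratio of Pcna was -0.08.

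Nucleotide supply genes had a median of -0.26 over 4 genes, all below 0. Tk1, the salvage kinase for thymidine, had 3044 on the DKO-titled and 2366 on the TKO-titled array (-0.36). Tyms, which makes thymidylate de novo, had 323 and 267 (-0.27). Another probe set that lists Tyms together with its pseudogene was not used. The large subunit gene of ribonucleotide reductase, Rrm1, had 7729 and 6495 (-0.25). The small subunit gene Rrm2, whose product is limited to S phase, had 11409 and 10932 (-0.06). Other probe sets did not keep this order, at -0.12 for Rrm1 and at -0.07 and -0.21 for Rrm2. Rrm2 was above 0 after quantile normalization (0.05) and after lowess (0.06).

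The G1/S control genes did not share a direction, and their median of -0.04 was that of a single gene, Ccne1. The median was -0.15 as the mean over probe sets and -0.19 without the cross-hybridising types. Ccne2, a cyclin that activates Cdk2 at the start of S phase, had 2092 and 2713 on the DKO-titled and TKO-titled arrays (0.37, 1.3-fold higher), the highest ratio of the 37. Its paralog Ccne1 had 817 and 792 (-0.04), and a second probe set of nearly the same signal, 809 and 679, gave -0.25. E2f1, the activating E2F factor, had 459 and 402 (-0.19). Ccne2 was read by a single probe set, so no second reading of it exists, and its ratio ran from 0.37 to 0.42 over the alternative settings.

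Helicase loading, polymerase and nucleotide supply genes did not separate. Their medians of -0.23, -0.29 and -0.26 differed by at most 0.06, and the ranges of the 3 groups overlapped. Different probe sets of 1 gene gave ratios with a robust SD of 0.21 per probe set over 4794 genes and 0.16 over 24 members, read from the same hybridisations. That is the spread of single readings, and the group medians have no measured error. The polymerase and G1/S control medians differed by 0.25, and their ranges overlapped too. Without the cross-hybridising probe set types these medians were -0.25 and -0.19, and the groups farthest apart were then loading (-0.31) and activation (-0.16).

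**Figure D3:**
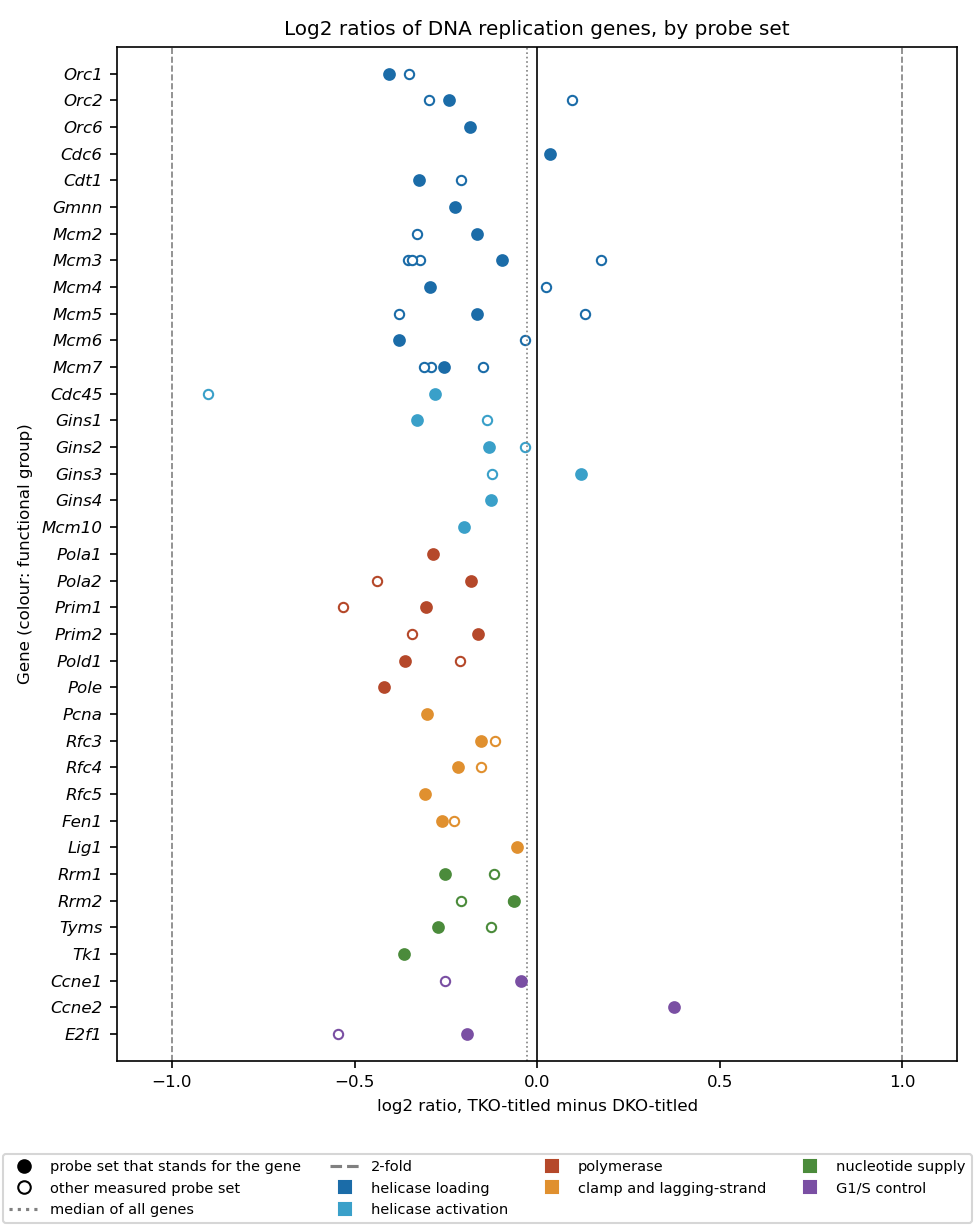
Log2 ratios (TKO-titled minus DKO-titled, horizontal axis) of all 70 member probe sets with a ratio, 1 row per gene; filled points stand for the gene, open points are its other probe sets, the dotted line is the median of all genes (-0.03) and dashed lines mark 2-fold. Of the 70 points, 63 lie below 0, and the farthest is the second Cdc45 probe set at -0.90.

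Probe sets of one member mostly gave the same sign. Of the 81 probe sets, 69 were above the floor on both arrays, 1 on the DKO-titled array alone (Pola2, 97.2 and 51.5) and 11 on neither. Of the 70 with a ratio 63 were below 0, against 53.2% of all probe sets with a ratio, and 0 were 2-fold apart, against 3.49%. In 24 members with 2 or more probe sets above the floor on both arrays, the range of ratios within a gene had a median of 0.17, and 19 of 24 genes had all their probe sets on the same side of 0. For other genes with 2 such probe sets the median range was 0.22 and 61.5% had 1 sign, where the 19 members with 2 had 0.16 and 17 of 19. With 3 such probe sets the order turned, at 0.36 and 43.6% in other genes and 0.39 and 1 of 3 in members. Because a gene whose ratios lie farther from 0 keeps 1 sign more readily, the share of 1 sign depends on the median shift as well as on agreement.

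The closest readings were those of Fen1 (-0.26 and -0.23), Rfc3 (-0.15 and -0.12) and Orc1 (-0.41 and -0.35). Mcm7 kept 4 probe sets between -0.31 and -0.15. The members with both signs were Gins3 (0.12 and -0.12), Mcm4 (-0.29 and 0.02), Orc2 (-0.29 to 0.10), Mcm5 (-0.38 to 0.13) and Mcm3 (-0.35 to 0.17). In Mcm3 and Mcm5 the positive reading came from the dimmest probe set, with signals of 114 and 129 for Mcm3 and 234 and 256 for Mcm5. The widest range was that of Cdc45, where a dim probe set (155 and 82.9) gave -0.90 and the brighter one -0.28, and as a mean over its probe sets Cdc45 was at -0.59. E2f1 also had a lower second reading, 321 and 220 (-0.54). Of the members, 13 had both a cross-hybridising type of probe set and another type, and the first was the higher in 8 of 13, by a median of 0.06, against 56.1% and 0.04 in 1710 other genes. Mcm6 (-0.03 and -0.38) and Mcm4 (0.02 and -0.29) differed most between the 2 types.

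Other genes of the pathway, taken from a list of 60 names of which 58 had a ratio, had a median of -0.20, with 46 of 58 below 0. As the mean over probe sets it was -0.13, where the members' median was -0.21. At 2-fold 2 of 58 were higher and 0 lower, against 3.58% and 0.532% of all genes, a share near the background. In the licensing and firing list 10 of 12 ratios were below 0; the others were Orc5 (0.18) and Mcm9 (0.14), and Dbf4, the activating partner of Cdc7, was at -0.005. All 6 fork and chromatin genes with a ratio and all 9 clamp and lagging-strand genes were below 0. The remaining lists were more mixed, with 4 of 6 polymerase, 6 of 9 nucleotide supply and 11 of 16 G1/S control genes below 0. The genes given next were named for the size of their ratios, and Orc3, Orc4, Orc5, Mcm9 and Dbf4 were named after their values were seen. Ticrr, which brings Cdc45 to origins, had 749 and 557 on the DKO-titled and TKO-titled arrays (-0.43, and -0.38 by a second probe set). Cdc7, the kinase that fires origins, had 2172 and 1633 (-0.41), but a dim second probe set, 163 and 159, gave -0.04. Mcm8 had 707 and 577 (-0.29). The fork protection pair Tipin and Timeless had 8228 and 6331 (-0.38), and 2116 and 1740 (-0.28), with -0.45 from a second Timeless probe set. Dna2, a nuclease of Okazaki fragment processing, had 2950 and 2092 (-0.50), and its 3 probe sets lay between -0.55 and -0.39. The single-strand binding subunits Rpa1 and Rpa2 were at -0.32 and -0.28, and their other probe sets were closer to equal at -0.11 and -0.07. Chaf1b, a subunit of the chromatin assembly factor that loads histones behind the fork, had 1266 and 784 (-0.69, 1.61-fold lower), the lowest of the 58.

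The 6 polymerase subunits outside the 37 had a median of -0.04, against -0.29 for the 6 polymerase members, so the low median of that group did not extend to them. They included 1 of the genes past 2-fold. Pold4, the small accessory subunit of polymerase delta, had 744 on the DKO-titled and 1795 on the TKO-titled array (1.27, 2.41-fold higher), by its only probe set. Its partner Pold2 was at -0.26, and Pole2, the second subunit of polymerase epsilon, at -0.20. Over the alternative settings Pold4 ran from 1.24 to 1.30.

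In nucleotide supply the higher genes were not those of S-phase synthesis. Samhd1, which breaks deoxynucleotides down, had 396 and 1071 (1.44, 2.71-fold higher), a second probe set gave 1.34, another was measured on the TKO-titled array alone (50.1 and 239, at least 3.47-fold higher), and a dim one gave a bound of 0.26. Rrm2b, the reductase subunit induced by p53 and used outside S phase, had 481 and 673 (0.48), and its other probe sets gave 0.77 and bounds of 0.37 and 0.37. Mthfd1, a folate enzyme that feeds thymidylate synthesis, had 4122 and 2903 (-0.51), but its 3 probe sets ran from -0.51 to 0.48. Over the alternative settings Samhd1 ran from 1.21 to 1.47.

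In G1/S control the D-cyclin kinases had lower values. Cdk6 had 11404 and 7204 (-0.66, 1.58-fold lower), with 3 probe sets between -0.66 and -0.61, and Cdk4 6283 and 4701 (-0.42), where its other 2 probe sets both gave -0.19. Rbl2, the retinoblastoma relative p130 that represses E2F targets in resting cells, had 672 and 979 (0.54), and a second probe set 0.73. None of the 3 was 2-fold apart.

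Mitosis genes, a list of 15 names with 14 ratios, had a median between those of the replication genes and of all genes. It was -0.18 with 11 of 14 below 0, and 0 were 2-fold apart. As the mean over probe sets it was -0.06, near the -0.02 of all genes. Top2a, the topoisomerase that untangles sister chromatids, had 18243 and 13807 (-0.40, and -0.54 by a second probe set), Aurka 1836 and 1431 (-0.36), and the proliferation marker Mki67 13988 and 11561 (-0.28). Cenpe, a kinetochore motor, had 1256 and 1520 (0.28), but a second probe set of like signal, 1379 and 1326, gave -0.06. After lowess the medians of the 37 members, the other replication genes and the mitosis genes were -0.15, -0.14 and -0.09.

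**Figure D4:**
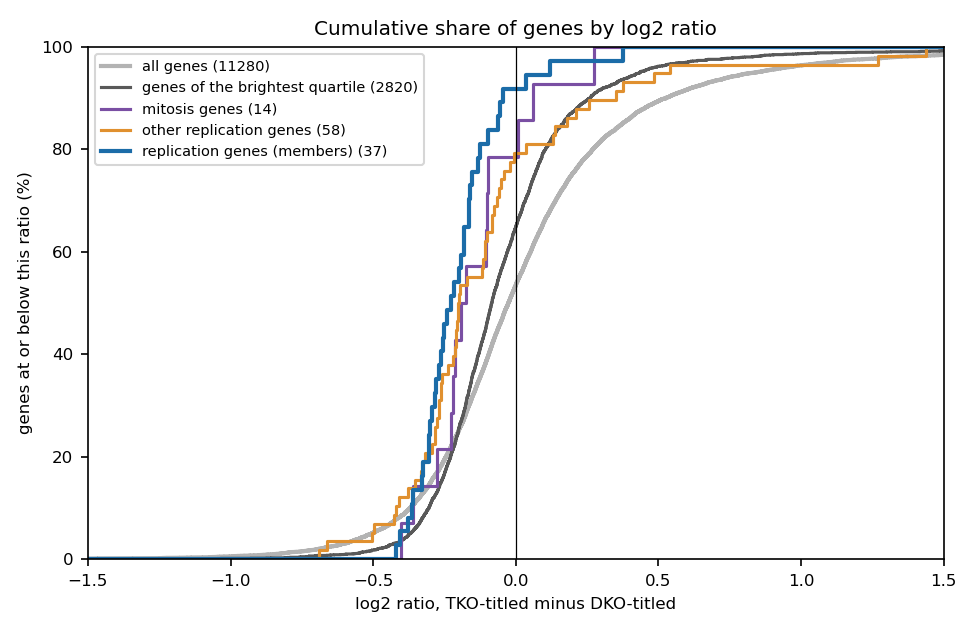
Cumulative share of genes (vertical axis, percent) at or below each log2 ratio (horizontal axis, TKO-titled minus DKO-titled; ratios beyond 1.5 in size drawn at the edge) for the 37 replication genes, the 58 other replication genes, the 14 mitosis genes, the brightest quartile and all genes. The curve of the 37 genes crosses its midpoint at -0.23, left of the brightest quartile at -0.08 and of all genes at -0.03.

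Cell type markers also differed between the arrays, in directions that were not the same for every list. All 9 T lineage markers with a probe set were above the floor on both arrays. So were all 9 B lineage markers with one, so passing the floor does not bear out the labelled cell type. The summed signal of the T lineage markers was 92853 on the DKO-titled and 62403 on the TKO-titled array. All 9 of their ratios were below 0, with a median of -0.53. At 2-fold 1 of the 9 was lower, Il2ra, the interleukin-2 receptor alpha chain, with 6536 and 3162 (-1.05; 0.532% of all genes were 2-fold lower). All 9 B lineage markers with a probe set passed 2-fold toward the TKO-titled array (3.58% of all genes did), with summed signals of 9436 and 33586 and a median of 1.99. Of 7 myeloid markers with a ratio, 3 were 2-fold higher and 1 lower (summed signals 4053 and 5315), and Itgam and Cd14 reached the floor on neither array. The 3 erythroid markers with a probe set, Hba-a1, Klf1 and Alas2, did not reach the floor on either array (summed signals 73.1 and 80.9). In the stroma and epithelium list the summed signals were 4648 and 2438, and most of that difference was 1 gene, Pdgfrb, at 3605 and 1423 (-1.34), the only one of 4 past 2-fold. Epcam was at -0.26, Krt5 at 0.31 and Krt8 at 0.42, and Col1a1 and Col1a2 reached the floor on neither array. In such bulk RNA, fewer dividing cells and less RNA of these genes per cell cannot be told apart, and the part of the marker differences in the ratios of the replication genes, Pold4 and Samhd1 was not tested.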

How the data were processed

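Gene expression was measured on 2 one-colour Affymetrix arrays, 1 per label. The authors deposited array intensity values on a linear scale, made with MAS5 per the submitters' processing notes, with no version or settings. The table has 45037 probe sets. The platform annotation gives 1 gene for 34945, several for 932 and does not list 9160, and 34741 were matched by Entrez ID to RefSeq symbols (GRCm38.p6). Of a gene's probe sets, the one brightest by mean log2 signal stood for it, which gave 18193 genes. Signals under each array's median were raised to it, and 6913 genes under it on both arrays had no ratio. A fold against a floored signal is a bound. MAS5 scales a whole array, so a global change in RNA per cell would not show, and detection calls were not used. The number of arrays limits the precision. Python 3.11.15 was used (pandas 2.3.3, numpy 2.4.6, statsmodels 0.14.6), figures were drawn with matplotlib 3.10.9, and the procedure was tested on simulated data. Alternatives were 3 scalings (median, quantile, lowess with span 0.3), 3 floors (25th percentile, 75th percentile, none), the mean over probe sets, and leaving out _x_at and _s_at probe sets. The text names all 37 members and, per other list, genes past 2-fold and the 3 largest ratios. Cenpe and Mki67 shared the last place in the mitosis list. The members, groups, motifs and lists were chosen with earlier results of these data known. Listed genes without a single-gene probe set in the annotation used were not analysed here.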

Additional observations from a re-analysis of the deposited data

How the results depend on the processing

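The counts at 2-fold (0 members, 2 other replication genes and 0 mitosis genes) were the same under all 8 alternatives, and the median of the members ran from -0.25 to -0.15. A shift of a median by over 0.1 on the log2 scale was counted as a move, and the medians of 2 member groups and of the mitosis genes moved: that of clamp and lagging-strand genes to -0.13 after lowess, and that of G1/S control genes to -0.15 as the mean over probe sets and to -0.19 without _x_at and _s_at probe sets, and that of mitosis genes from -0.18 to -0.06 as the mean over probe sets. The same mean put the other replication genes at -0.13 in place of -0.20. The cause was not tested. The median range between probe sets of a member ran from 0.16 with the 75th-percentile floor to 0.24 with no floor. The number of members below 0 was lowest after lowess, at 31 of 37, when Mcm3, Lig1 and Rrm2 were above 0 by at most 0.06; quantile normalization put Rrm2 above 0 at 0.05, and the mean over probe sets put Gins3 just below 0. With the 75th-percentile floor 36 members had a ratio. E2F-type matches within 100 bases before to 50 after the start were found in 9 members in place of 12. With 1 array per label no array could be left out and no paired analysis was possible because each label has a single sample.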
